A study of Bos taurus with 22 samples.

Results

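The transcripts of 9 genes that carry iron or zinc across the intestinal epithelium, or that store iron within it, were measured in the jejunal mucosa of Holstein steers. The genes were chosen by name: SLC39A4 and SLC39A5 (zinc importers), SLC30A1 (a zinc exporter), CYBRD1 (a ferric reductase), SLC11A2 (the ferrous iron importer DMT1), SLC40A1 (the iron exporter ferroportin), HEPH (the ferroxidase hephaestin), FTH1 (the ferritin heavy chain) and TFRC (transferrin receptor 1). All 9 were present once each among the 27570 genes of the count table, and all 9 passed the filter on low counts.

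Dietary iron is reduced at the brush border by duodenal cytochrome b, the product of CYBRD1, and enters the enterocyte through SLC11A2. It is held in ferritin or leaves across the basolateral membrane through SLC40A1, with hephaestin oxidizing it for transferrin. TFRC takes transferrin-bound iron up from the blood side and is best known in dividing cells. Zinc enters from the lumen through SLC39A4, whereas SLC39A5 lies basolaterally and SLC30A1 carries zinc out of the cell.

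The 22 steers were 10 to 12 months old and received 3.94 g of raw corn starch per kg of body weight per day into the abomasum for 7 days. In a 2 × 2 factorial, the infusate also carried water or casein, the milk protein, at 1.30 g/kg per day, and the steers were injected with glucagon-like peptide 2 (GLP-2, a gut hormone with trophic action on the intestine) at 100 µg/kg per day or with bovine serum albumin (BSA) as its vehicle protein. The 4 treatments were control (water and BSA, n = 5), GLP-2 (water and GLP-2, n = 5), casein (casein and BSA, n = 6) and casein + GLP-2 (n = 6), spread over 6 blocks by body weight. Pooled over the other factor, 11 GLP-2 steers were compared with 11 BSA steers, and 12 casein steers with 10 water steers. RNA came from mucosa scraped from the jejunal wall, so a library mixes villus, crypt, immune and muscle RNA, and fewer cells of a type cannot be told apart from less RNA per cell.

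Library totals ran from 8809666 to 28447810 counts with a median of 12028560.5, and no pair of libraries was identical. All 19 villus enterocyte markers were detected in each of the 22 libraries, as the label jejunal mucosa implies. FABP2 had at least 6014 and APOA1 at least 3991 counts, while SLC2A2 and ALPI fell to 36 and 19. The markers summed to between 4005 and 137900 CPM, so villus RNA differed widely between libraries. Their mean log2 CPM was lowest in controls 3 and 5 and casein steers 1 and 3, all BSA steers (6.69 to 8.04, against at least 8.82 elsewhere). Red blood cell RNA was scarce: the 7 erythroid genes present summed to between 0.319 and 6.20 CPM (counts scaled to the effective library size), and SLC4A1 was at 0 in all 22 libraries. Control steers 1, 3 and 5 and casein steer 3 stood apart from the other 18 in their B cell follicle markers, with mean log2 CPM scores of 5.95 to 7.01 against at most 3.58 elsewhere. All 4 belonged to the BSA side, so the GLP-2 fold changes were also fitted without them, which left 2 control and 5 casein steers.

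Per length, the 9 transcripts covered a wide range of levels. The median over the 22 steers in FPKM, which scales fragments to gene length and library size, was 2286 for FTH1, followed by SLC39A4 at 91.9, SLC39A5 at 80.3 and HEPH at 70.6. SLC40A1 (32.4 FPKM), SLC11A2 (25.7 FPKM), SLC30A1 (12.2 FPKM), TFRC (9.33 FPKM) and CYBRD1 (3.39 FPKM) completed the order. Within steers, FTH1 exceeded SLC39A4 in 22 of 22 by 4.50 ± 0.756 on the log2 FPKM scale (SD), and SLC11A2 exceeded SLC30A1 in 22 of 22 by 1.18 ± 0.477. The remaining neighbours changed places between steers: SLC39A4 exceeded SLC39A5 in only 11 of 22, SLC39A5 exceeded HEPH in 15 of 22, HEPH exceeded SLC40A1 in 18 of 22, SLC40A1 exceeded SLC11A2 in 15 of 22, SLC30A1 exceeded TFRC in 12 of 22, and TFRC exceeded CYBRD1 in 20 of 22. The brush-border reductase thus had the lowest median FPKM of the 9 members, at 48 to 1073 counts per library.

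**Figure D1:**
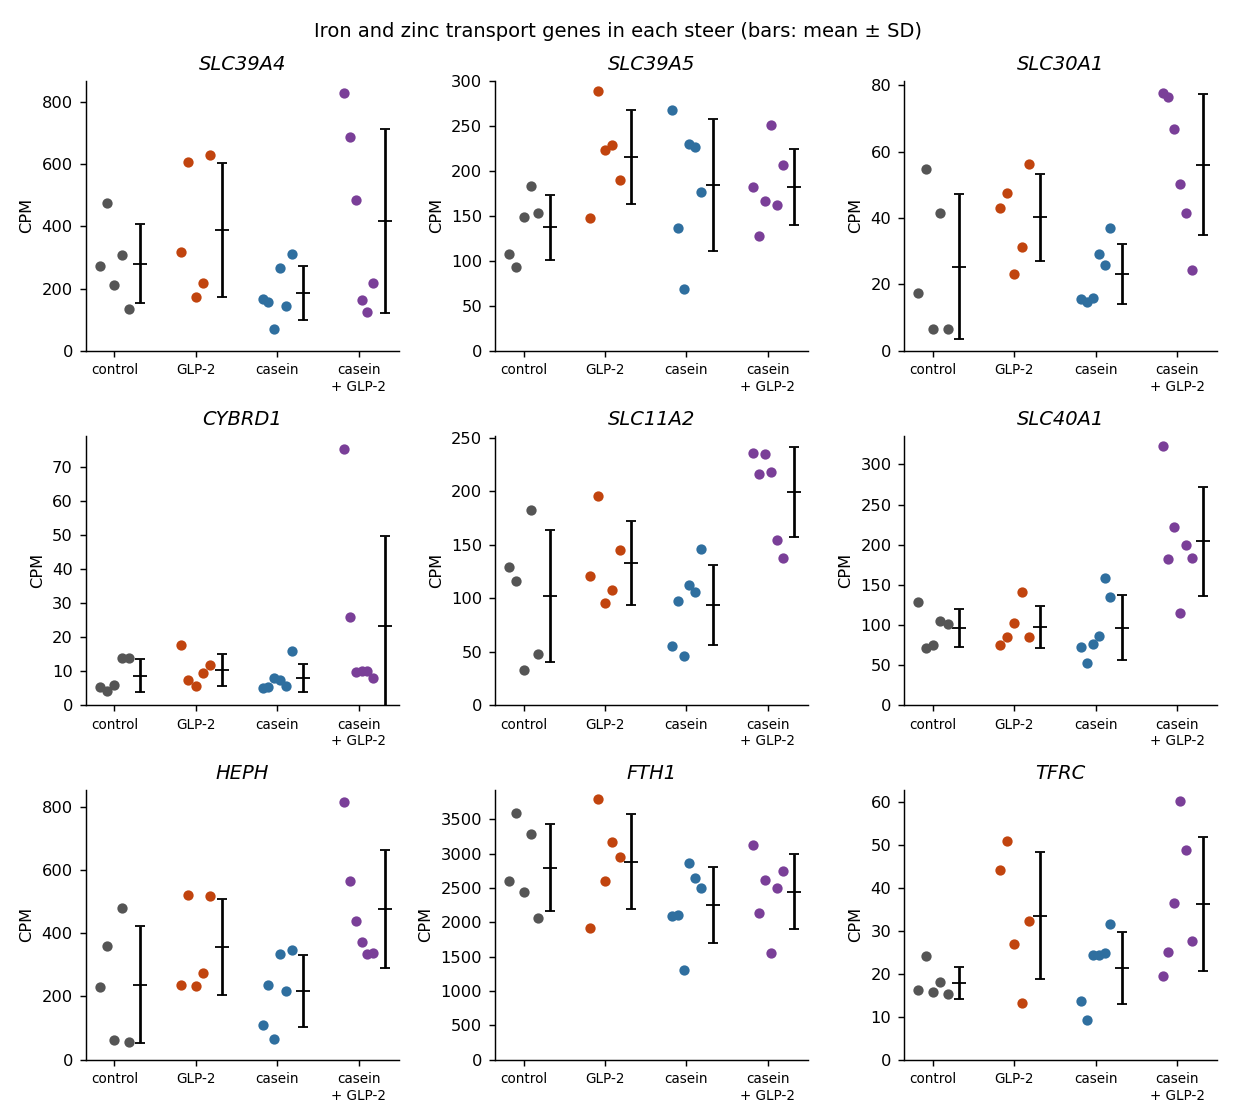
Each point is the CPM of one steer (vertical axes, linear from 0) in the 4 treatments (horizontal axes), with the mean ± SD beside it; the lower SD bar of CYBRD1 in casein + GLP-2 is cut at 0. The 6 casein + GLP-2 steers hold the 5 highest SLC40A1 values, and a single casein + GLP-2 steer at 75.4 CPM sets the CYBRD1 mean.

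The first comparison asked which of these transcripts responded to exogenous GLP-2. Of 9 genes, 3 were higher in the GLP-2 steers than in the BSA steers at an adjusted p of at most 0.05: the zinc exporter SLC30A1 (2.05-fold), the iron importer SLC11A2 (1.75-fold) and the transferrin receptor TFRC (1.77-fold). No member was called lower. Among all 13928 genes tested, 13.5% were called in either direction and 5.13% were called higher, and 34.6% had an unadjusted p of at most 0.05, which held for 7 of the 9 members. The median log2 fold change of the members was 0.825, beside 0.0079 for all genes tested and 0.933 for the 19 villus enterocyte markers. The calls were lost with the body weight block in the model (0 members, smallest adjusted p = 0.0504) and without the 4 follicle-rich BSA steers (0 members, smallest adjusted p = 0.32). Without those 4 steers no gene of the whole table was called by edgeR, 5 of the 9 members passed 0.05 before adjustment, as did 13.5% of all genes, and the median of the members was 0.646.

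SLC30A1, which exports zinc from the cell, was detected in the 11 BSA steers at a lowest of 6.52, a median of 17.4 and a highest of 54.8 CPM. In the 11 GLP-2 steers the lowest was 23.1, the median 47.5 and the highest 77.6 CPM. All 11 GLP-2 steers lay above the BSA median, and 4 lay above the highest BSA steer, so the ranges overlapped. The log2 fold change was 1.04 ± 0.321 (SE), with a 95% CI of 0.37 to 1.70 and an adjusted p of 0.0381 (edgeR quasi-likelihood test). It was 0.65 (adjusted p = 0.356) without the 4 follicle-rich steers and 1.17 (adjusted p = 0.0504) with the block, and it kept its call in 10 of 22 fits that left out 1 steer (adjusted p up to 0.072, without casein + GLP-2 steer 1). Both control steers near the bottom, replicates 3 and 5 at 6.67 and 6.52 CPM, were among those 4.

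The brush-border zinc importer SLC39A4 ranged from 70.5 to 474.0 CPM under BSA (median 210.7) and from 125.7 to 828.4 CPM under GLP-2 (median 315.8). Its log2 fold change of 0.85 ± 0.347 had an adjusted p of 0.0912, and 5 of 11 GLP-2 steers exceeded the highest BSA steer. Without the 4 follicle-rich steers it was 0.65 (adjusted p = 0.438), and without casein + GLP-2 steer 1 it was 0.65 (adjusted p = 0.19). The basolateral importer SLC39A5 was closer between the groups, at 68.2 to 267.9 CPM (median 153.5) under BSA and 127.5 to 289.0 CPM (median 190.3) under GLP-2. Its log2 fold change of 0.29 ± 0.196 (adjusted p = 0.294) had a 95% CI of -0.11 to 0.69, and it was 0.072 (adjusted p = 0.875) without the 4 steers. Of the 3 zinc transporters, then, the exporter alone passed the threshold, and differences between the 3 were not tested.

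SLC11A2, the importer of ferrous iron, stood at a lowest of 33.4, a median of 106.2 and a highest of 183.0 CPM in the BSA steers. The GLP-2 steers ran from 95.8 through a median of 154.5 to 235.4 CPM. The groups overlapped, with 10 of 11 GLP-2 steers above the BSA median and 5 above the highest BSA steer. The log2 fold change was 0.80 ± 0.258 (95% CI 0.27 to 1.34, adjusted p = 0.0427), against 0.54 (adjusted p = 0.342) without the 4 follicle-rich steers and 0.89 (adjusted p = 0.0534) with the block. It kept its call in 9 of 22 fits that left out 1 steer, with an adjusted p of up to 0.0797 (without casein + GLP-2 steer 3). The reductase CYBRD1, which feeds this importer with ferrous iron, was at 4.32 to 15.9 CPM (median 6.04) under BSA and 5.59 to 75.4 CPM (median 9.93) under GLP-2. Its log2 fold change of 1.11 ± 0.412 (adjusted p = 0.0684) was the largest of the 9 but fell to 0.46 (adjusted p = 0.285) when casein + GLP-2 steer 1, at 75.4 CPM, was left out. Without the 4 follicle-rich steers it was 1.11 (adjusted p = 0.361).

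Both export genes had unadjusted differences that missed the adjusted threshold. SLC40A1, the iron exporter, was at 52.5 to 158.0 CPM (median 86.5) in the BSA steers and 75.5 to 322.6 CPM (median 141.6) in the GLP-2 steers, a log2 fold change of 0.71 ± 0.243 with an adjusted p of 0.0535. HEPH, the ferroxidase that works with it, was at 54.7 to 479.3 CPM (median 228.3) and 231.7 to 814.2 CPM (median 372.3), a log2 fold change of 0.92 ± 0.346 with an adjusted p of 0.0712. All 11 GLP-2 steers lay above the BSA median of HEPH, while 8 of 11 did so for SLC40A1. DESeq2's Wald test called both (adjusted p = 0.0282 for SLC40A1 and 0.0345 for HEPH) together with CYBRD1 (adjusted p = 0.0331), making 6 of 9 members by that tool, which called 21.5% of all genes in this comparison. Without the 4 follicle-rich steers the log2 fold changes were 0.69 for SLC40A1 (adjusted p = 0.344) and 0.51 for HEPH (adjusted p = 0.407) by edgeR. Leaving out casein + GLP-2 steer 1 instead gave 0.50 for SLC40A1 (adjusted p = 0.122) and 0.75 for HEPH (adjusted p = 0.142) by edgeR.

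FTH1, the iron storage subunit, was not called: it stood at 1314 to 3598 CPM (median 2499) under BSA and 1551 to 3804 CPM (median 2622) under GLP-2. The log2 fold change was 0.09 ± 0.180 with a 95% CI of -0.28 to 0.46 (adjusted p = 0.733), and it changed sign under several of the settings listed in the closing section. Ferritin heavy chain has processed copies in mammalian genomes, so reads may be shared between copies and its level is uncertain. TFRC, at the other end of iron handling, was at a lowest of 9.17, a median of 18.1 and a highest of 31.7 CPM in the BSA steers, against 13.3, 32.2 and 60.3 CPM in the GLP-2 steers. The ranges overlapped, although 10 of 11 GLP-2 steers lay above the BSA median and 6 of 11 above the highest BSA steer. TFRC had the smallest adjusted p of the 9 (0.027), with a log2 fold change of 0.82 ± 0.229 (95% CI 0.35 to 1.30), which became 0.75 (adjusted p = 0.32) without the 4 follicle-rich steers and 0.78 (adjusted p = 0.0525) with the block. Of 22 fits that left out 1 steer, 18 kept this call, and the adjusted p was up to 0.0551 (without GLP-2 steer 3).

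**Figure D2:**
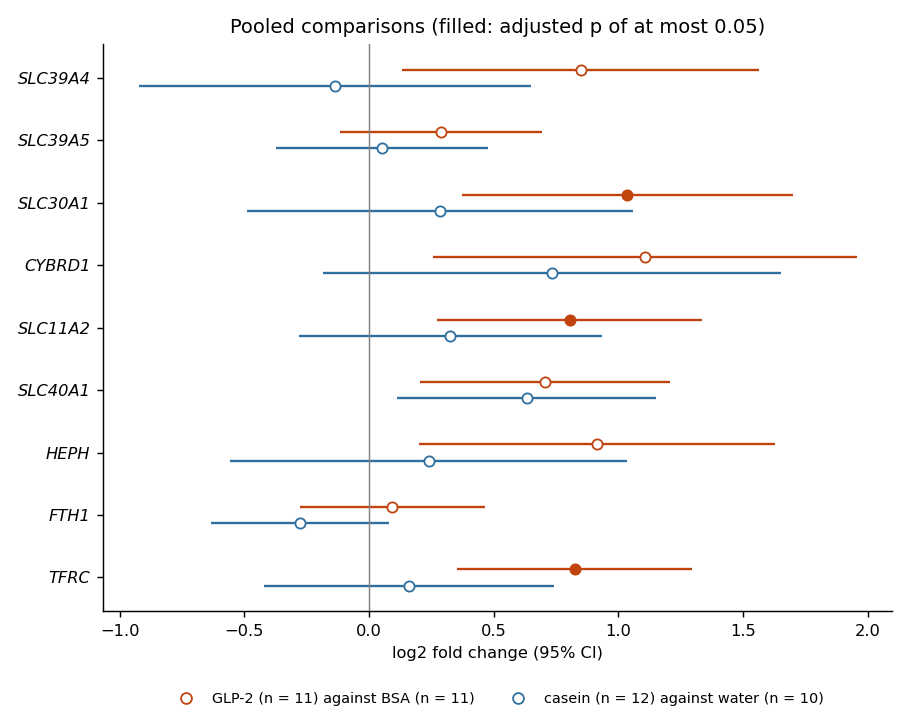
Log2 fold changes (horizontal axis) with 95% CI for each of the 9 genes in GLP-2 against BSA (orange, 11 against 11 steers) and casein against water (blue, 12 against 10 steers), filled where the adjusted p was at most 0.05. Filled symbols appear for SLC30A1, SLC11A2 and TFRC under GLP-2 and nowhere under casein. Scaled to villus markers, all 9 GLP-2 values lie below 0 but above the median of all genes, which was then at -1.73.

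Marker lists of cell types were read in the same comparison, where 13.5% of all genes were called. The 19 villus enterocyte markers summed to 4005 to 95230 CPM in the BSA steers and 31280 to 137900 CPM in the GLP-2 steers, and 19 of 19 had a positive log2 fold change with 1 called. The 11 B cell follicle genes summed to 24.8 to 2247 CPM under BSA and 21.9 to 77.2 CPM under GLP-2, with 10 of the 10 tested called lower and a median log2 fold change of -3.93. Of 10 proliferation genes 6 were called lower (median -1.05), of 8 T cell genes 1 was called lower, of 10 macrophage genes 1 was called higher, and of 9 smooth muscle and 4 tested crypt stem cell genes none was called. Only the follicle and proliferation lists thus held calls beyond the 13.5% of all genes. Of the 19 villus markers 12 had an unadjusted p of at most 0.05 (edgeR), beside 34.6% of all genes. With the villus score as a covariate 0 members were called, as were 0 of all 13928 genes, and the log2 fold changes were 0.61 for TFRC, 0.35 for SLC30A1, 0.24 for SLC11A2 and 0.09 for HEPH. Scaled instead to the villus score, the median of all genes moved to -1.73 and 83.9% of all genes were called. All 9 members then had negative values with 4 called lower (SLC39A4, SLC39A5, SLC40A1 and FTH1), while SLC30A1 was at -0.20, SLC11A2 at -0.56 and TFRC at -0.76. Measured from that median, the last 3 were 1.54, 1.18 and 0.97 above it. All 9 members lay above it, with the 4 called lower at 0.93, 0.20, 0.66 and 0.18 in the order named. The part of the change in tissue make-up in these differences was not tested further.

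The pairwise contrasts asked whether the GLP-2 difference was seen with water and with casein in the abomasum. During water infusion (GLP-2 against control), 0% of all genes and 0 of 9 members were called by the edgeR quasi-likelihood test. At an unadjusted p of at most 0.05 there were 2 members, TFRC (log2 fold change 0.91 ± 0.354) and SLC39A5 (0.65 ± 0.286), while the table as a whole held 13.9%. DESeq2's Wald test called 0 members and 1.92% of all genes there. Without the follicle-rich steers the members' median moved from 0.473 to -0.0159 and 0 members had such a p (3.88% of all genes), with TFRC at 0.65, SLC39A5 at 0.63, SLC39A4 at -0.016, SLC11A2 at -0.18, HEPH at -0.25 and SLC30A1 at -0.27. During casein infusion (casein + GLP-2 against casein), again 0% of all genes and 0 of 9 members were called by edgeR, but 7 of 9 members had an unadjusted p of at most 0.05, where the table held 24.1%. The smallest was for SLC40A1, with a log2 fold change of 1.08 ± 0.263 and an adjusted p of 0.118. DESeq2 called 4 members in that contrast, SLC40A1, SLC11A2, CYBRD1 and SLC30A1, and 5.91% of all genes. Without the follicle-rich steers 7 members still had an unadjusted p of at most 0.05 (26.3% of all genes), the members' median was 0.972 beside 1.09 with all steers, and SLC40A1 was at 1.05 (adjusted p = 0.0917).

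The iron exporter SLC40A1 was high in 1 of the 4 treatments. Control steers had 129.0, 71.1, 75.6, 104.5 and 101.7 CPM, and GLP-2 steers 75.5, 85.2, 101.9, 141.6 and 85.1 CPM. Casein steers ranged from 52.5 through a median of 81.3 to 158.0 CPM, and casein + GLP-2 steers from 114.9 through a median of 191.4 to 322.6 CPM. The first 3 treatments had like levels, with means of 96.4 ± 23.6, 97.8 ± 26.2 and 96.8 ± 40.6 CPM (SD). The steers given casein with GLP-2 had a mean of 204.1 ± 68.2 CPM, and 5 of the 6 exceeded the highest of the 16 other steers. The interaction, which tests whether the GLP-2 difference depended on the infusion, was 1.05 ± 0.387 on the log2 scale, with an unadjusted p of 0.0123 and an adjusted p of 0.996 (edgeR). With all steers, SLC40A1 was the only member with an unadjusted interaction p of at most 0.05, beside 4.28% of all genes, and 0% were called after adjustment. Without the 4 follicle-rich steers its interaction was 0.92 (unadjusted p = 0.0712), while SLC30A1 (1.504), SLC11A2 (1.16) and HEPH (1.22) had an unadjusted p of at most 0.05, beside 14.8% of all genes, and no gene was called after adjustment.

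SLC11A2 and SLC30A1 were also highest on average in casein + GLP-2, as were SLC39A4, HEPH, CYBRD1, TFRC and the villus enterocyte score. SLC39A5 and FTH1 had their highest mean in GLP-2. SLC11A2 was at 129.6, 116.6, 33.4, 183.0 and 47.7 CPM in control, 120.4, 195.3, 95.8, 107.3 and 144.8 CPM in GLP-2, 46.2 to 145.8 CPM (median 101.8) in casein and 138.1 to 235.4 CPM (median 217.0) in casein + GLP-2. In casein + GLP-2, 5 of 6 steers exceeded every casein steer for this importer. Its interaction of 0.71 ± 0.498 (adjusted p = 0.996) had a 95% CI of -0.32 to 1.74, so neither equal nor clearly unequal GLP-2 differences could be read from it. For SLC30A1 the control steers split, with 54.8 and 41.6 CPM in replicates 2 and 4 against 17.4, 6.67 and 6.52 CPM in replicates 1, 3 and 5. Its casein + GLP-2 steers ran from 24.3 through a median of 58.5 to 77.6 CPM.

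TFRC had positive estimates on both infusions that passed no adjusted test, with log2 fold changes of 0.91 during water and 0.76 during casein and an interaction of -0.15 ± 0.476 (95% CI -1.13 to 0.84, adjusted p = 0.996 by edgeR). Control steers were tightly grouped for this receptor, at 16.2, 24.2, 15.7, 18.1 and 15.2 CPM. GLP-2 steers had 44.3, 51.0, 27.0, 13.3 and 32.2 CPM, so 4 of 5 lay above every control steer. For SLC39A5 the 2 estimates had opposite signs, 0.65 during water and -0.01 during casein, with an interaction of -0.67 ± 0.386 (adjusted p = 0.996). Without the follicle-rich steers these were 0.63 and -0.17 for SLC39A5, and 0.65 and 0.82 for TFRC.

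**Figure D3:**
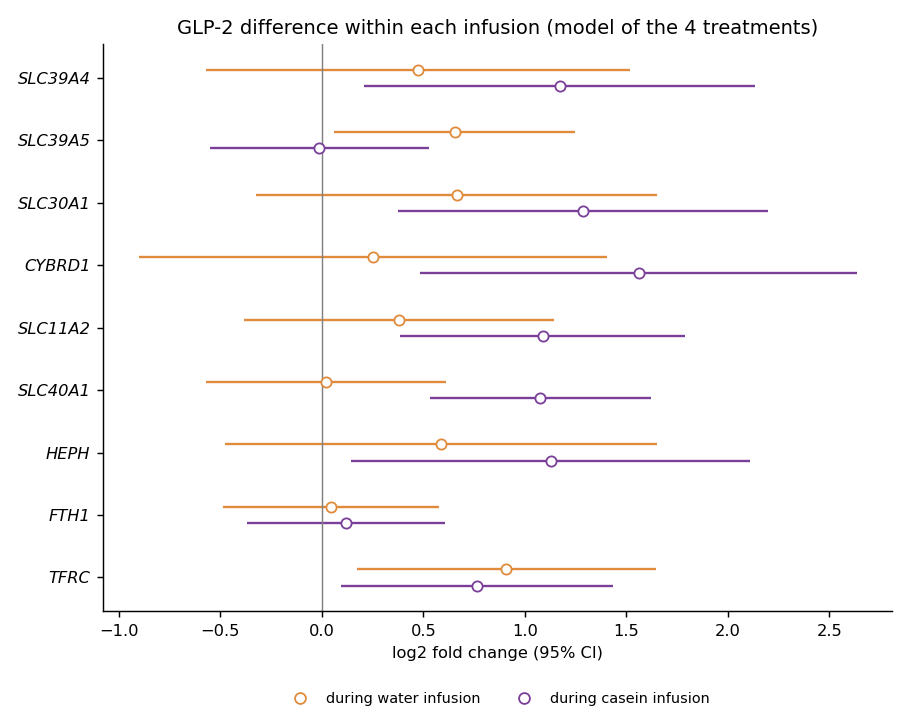
Log2 fold change of GLP-2 (horizontal axis, 95% CI) for each gene during water infusion (orange, GLP-2 against control) and during casein infusion (purple, casein + GLP-2 against casein). SLC40A1 is at 0.02 during water and 1.08 during casein, whereas TFRC is at 0.91 and 0.76; no value passed an adjusted p of 0.05.

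The second factor asked whether casein infused into the abomasum altered the same genes. No member was called in casein against water by the edgeR test (0% of all genes called, smallest adjusted p = 0.994), and DESeq2 called 0 members and 0.0355% of all genes. The one member with an unadjusted p of at most 0.05 was SLC40A1, at 0.63 ± 0.251 on the log2 scale (unadjusted p = 0.019), beside 3.36% of all genes. FTH1 had the lowest estimate at -0.28 ± 0.172 (95% CI -0.63 to 0.08), and SLC39A4, SLC39A5, HEPH and TFRC had intervals that reached well to both sides of 0. CYBRD1 was at 0.73 ± 0.444, which fell to 0.064 when casein + GLP-2 steer 1 was left out. SLC40A1 fell to 0.44 without the same steer, its lowest value on leaving out single steers. Split by injection, casein against control held 0 members at an unadjusted p of at most 0.05 (5.66% of all genes, with 0% called), and SLC40A1 was at 0.01 ± 0.273. Casein + GLP-2 against GLP-2 held 2, SLC40A1 at 1.06 ± 0.279 and CYBRD1 at 1.16 ± 0.543, both with an adjusted p of 0.995, where the table held 2.64% and 0% were called. Without the follicle-rich steers this p was reached by 3 members (4.66% of all genes), SLC40A1 at 1.096, CYBRD1 at 1.24 and SLC11A2 at 0.61. For CYBRD1 the medians were close, at 10.0 CPM in casein + GLP-2 and 9.41 CPM in GLP-2. Its estimate in both of these fits includes casein + GLP-2 steer 1, at 75.4 CPM. This steer also had the highest SLC40A1 value, at 322.6 CPM. DESeq2 called 0 members in either contrast (0.0663% and 0.0331% of all genes) or in the interaction (0.0133%). These contrasts share the casein + GLP-2 steers with those above, so they are not separate evidence for SLC40A1.

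Genes of wider zinc, iron and copper lists were read against the 13.5% of all genes called in GLP-2 against BSA (5.13% higher). Of 26 other zinc genes 25 were in the table and 19 were tested, with 5 called higher and 1 lower in GLP-2 against BSA, so 31.6% of the tested list was called, and a median log2 fold change of 0.34. The 5 were SLC30A4 (1.20 ± 0.258) and SLC30A5 (0.63 ± 0.181), which load zinc into vesicles and the secretory pathway, and the importers SLC39A14 (1.15 ± 0.270), SLC39A9 (0.66 ± 0.171) and SLC39A1 (0.53 ± 0.155). The lower gene was the metallothionein MT2A at -1.07 ± 0.303 (adjusted p = 0.0294), a zinc-binding protein whose transcription, like that of SLC30A1, is known to be induced by zinc through MTF1. MT2A fell from 23.7 ± 13.9 to 11.4 ± 5.94 CPM, while SLC30A1 rose from 24.1 ± 15.3 to 48.9 ± 19.1 CPM (SD, 11 steers each, with the limits given above for SLC30A1). The MT2A call was lost with the block (-1.01, adjusted p = 0.0591) and without the follicle-rich steers (-1.03, adjusted p = 0.32). Metallothioneins are near-identical copies, so the split of reads between MT2A and its neighbours is uncertain.

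Of 29 other iron genes 25 were tested and 4 were called higher, 0 lower, with a median of 0.43. The 16% of the list called was near the 13.5% of all genes. ACO1 (0.67 ± 0.161) and IREB2 (0.59 ± 0.195) encode iron regulatory proteins 1 and 2, which bind TFRC and ferritin messages when cell iron is low. STEAP2 (0.91 ± 0.280) is a metalloreductase and FLVCR1 (0.89 ± 0.291) a heme exporter. The ferritin light chain FTL was at -0.23 ± 0.179 (adjusted p = 0.375), so neither ferritin subunit was called, and the plasma ferroxidase CP was at -1.31 ± 0.517 (adjusted p = 0.0828). The hepcidin gene HAMP, transferrin (TF), FTMT and STEAP4 had too few counts to be tested in this comparison.

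Copper is linked to iron export because hephaestin is a copper enzyme. Of 8 copper genes 2 were called higher, the copper pumps ATP7A (1.08 ± 0.310) and ATP7B (1.35 ± 0.365), and COMMD1, which regulates their trafficking, was called lower (-0.81 ± 0.220), which made 37.5% of this short list. None of these lists held a called gene in casein against water, or in GLP-2 against BSA once the 4 follicle-rich steers were left out, where the 11 genes called higher were at 0.34 to 0.88, MT2A at -1.03 and COMMD1 at -0.56 (adjusted p from 0.32 to 0.368). With the block, 3 zinc, 1 iron and 2 copper genes were called higher and 0 lower, with COMMD1 at -0.79 (adjusted p = 0.0581), while 4.95% of all genes were called. Scaled to the villus score, 12 of these 13 genes were below 0 and ATP7B was at 0.10, while 11 of the 13 lay above the median of all genes.

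**Figure D4:**
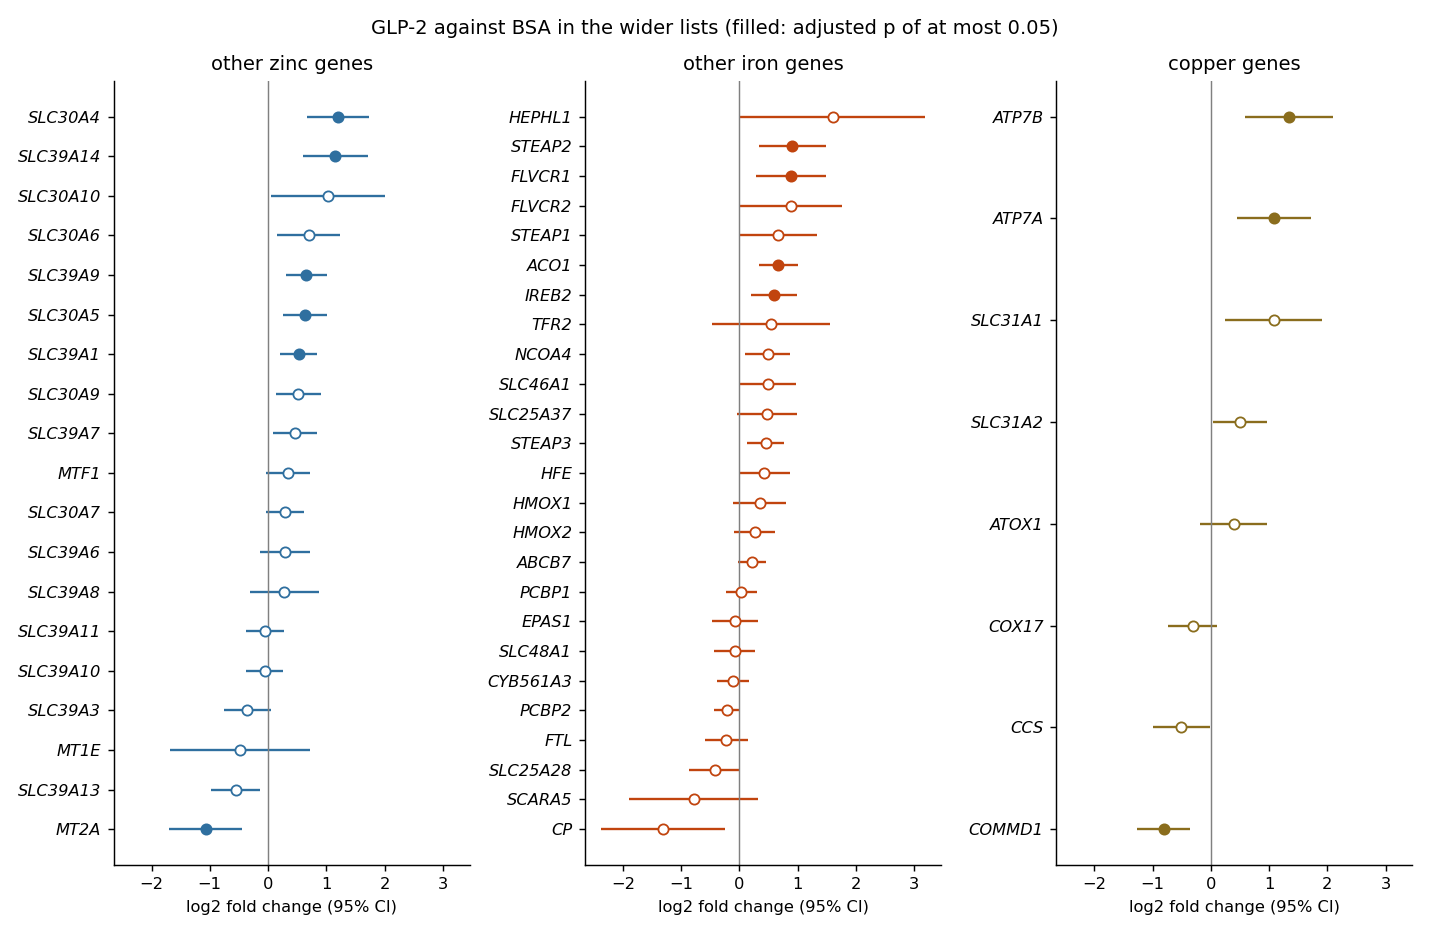
Log2 fold change in GLP-2 against BSA (horizontal axis, 95% CI) for the tested genes of the other zinc (19), other iron (25) and copper (8) lists, filled where the adjusted p was at most 0.05. Of the 13 filled genes 11 are above 0, led by ATP7B at 1.35, and MT2A and COMMD1 are below. Scaled to villus markers, with the median of all genes at -1.73, only ATP7B stays above 0.

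The members differed in how they varied between steers once treatment means were taken out of log2 CPM. HEPH, SLC11A2, SLC30A1, SLC39A4 and FTH1 varied together: 9 of their 10 pairs passed an adjusted p of 0.05 for Pearson's r (36 pairs, permutation test), with r from 0.47 to 0.93, and all 10 passed for Spearman's rho. None of the other 26 pairs passed, with r from -0.14 to 0.45. The group was picked from these same correlations, so its contrast with the other pairs follows in part from that choice. The share of all gene pairs that reach such r was not counted. Each gene of the group had a higher r with a gene outside the members, such as HEPH with GDE1 (0.98), out of 13245 compared. The grouping is therefore not shown to be particular to iron and zinc genes. The closest pair of members was HEPH with SLC11A2 over 22 steers, at r = 0.93 and rho = 0.93. Each had permutation p = 1e-05, the smallest these permutations allow (adjusted p = 0.00012 and 0.00018). Without the 2 steers farthest from the median that r was 0.91, and over the 18 steers without the follicle-rich ones it was 0.85. Over those 18 steers the 6 pairs among HEPH, SLC11A2, SLC30A1 and SLC39A4 had r from 0.57 to 0.85, whereas the 4 pairs of FTH1 with them had 0.20 to 0.52. FTH1 had a higher r with SLC40A1 (0.59) than with any of these 4 genes. The reductase CYBRD1, none of whose pairs passed over 22 steers, had r from 0.50 to 0.60 with the same 4 genes over the 18, so the place of FTH1 and CYBRD1 differed between the 22 and the 18 steers.

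Relations with the villus enterocyte score were strongest for the same 5 genes. HEPH (r = 0.90, rho = 0.94), SLC30A1 (0.84, 0.85), SLC11A2 (0.82, 0.88), SLC39A4 (0.69, 0.74) and FTH1 (0.69, 0.79) followed it, with adjusted permutation p-values over 63 relations from 0.000126 to 0.00175 for both measures. For TFRC (r = 0.31), SLC40A1 (0.19), CYBRD1 (0.13) and SLC39A5 (0.01) the adjusted permutation p was 0.284 or more. Without the 2 farthest steers, r for the first 5 was between 0.72 and 0.88, and over the 18 steers it was between 0.54 and 0.87. These 5 genes also ran against the B cell follicle score: HEPH -0.78, SLC30A1 -0.70, FTH1 -0.69, SLC11A2 -0.68 and SLC39A4 -0.65. The adjusted permutation p was 0.000126 to 0.00175, and over the 18 steers r was -0.62 to -0.34. For the other 4 members r with this score was -0.29 to 0.01 (adjusted permutation p of 0.335 or more). FTH1 was the member most opposed to proliferation genes (r = -0.82, rho = -0.86, adjusted permutation p = 0.000126 for both, r without the 2 farthest -0.81). HEPH (-0.78), SLC30A1 (-0.71), SLC11A2 (-0.66) and SLC39A4 (-0.60) were opposed to them too (adjusted permutation p of at most 0.0107). All 5 were opposed to the crypt stem cell score as well, from -0.74 for FTH1 to -0.55 for SLC11A2 (adjusted permutation p of at most 0.0224). For the smooth muscle score r ran from -0.75 for HEPH to -0.42 for FTH1, which alone of the 5 did not pass (adjusted permutation p = 0.117). With the T cell score r was positive, from 0.25 for FTH1 to 0.54 for HEPH. Differences between these 5 genes were not tested. Points in these relations share a library, so depth and the mix of cells in the scraping enter both axes. RNA integrity, which the paper reports to vary between samples, can enter both as well. The part of each was not tested.

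**Figure D5:**
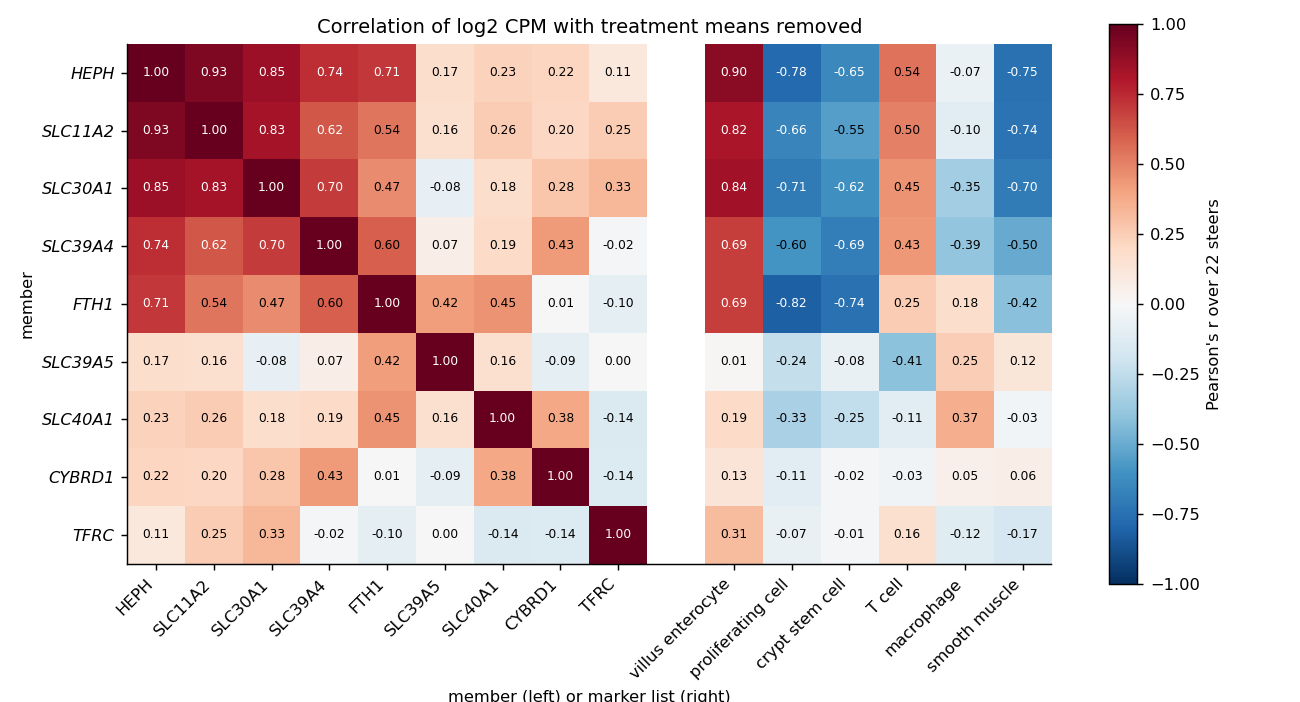
Pearson's r over 22 steers, treatment means removed, between the 9 members (left block) and between members and the mean log2 CPM of 6 marker lists (right block), from blue (-1) through white (0) to red (1). The upper left block of 5 genes holds r from 0.47 to 0.93, and the villus enterocyte column falls from 0.90 for HEPH to 0.01 for SLC39A5. The B cell follicle list was also tested and is not drawn.

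The genes most like each member across the 22 steers, out of 13245 with a symbol, were ranked by r. HEPH was nearest to GDE1 (r = 0.98) and MTTP (r = 0.97), the latter a marker of villus enterocytes used above. SLC11A2 was nearest to EPB41L5 (0.95) and CASC4 (0.94), SLC30A1 to EFCAB14 (0.96) and PRRC1 (0.95), SLC39A4 to IST1 (0.87) and CDHR2 (0.86), and FTH1 to GSTZ1 (0.94) and ACAA1 (0.92). SLC39A5 was nearest to GLYCTK (0.90) and UBAC1 (0.89), SLC40A1 to TCEAL8 (0.84) and SCAMP3 (0.83), and TFRC to LRRTM2 (0.82) and EIF3A (0.82). CYBRD1 had the weakest neighbours, UVRAG and ERGIC1 at 0.67 each. These are the highest of many correlations and are given as a description.

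On the ARS-UCD1.2 assembly used for the counts, the genes lie on 7 chromosomes. SLC39A5 (chr5:57091706-57097226, minus strand) and SLC11A2 (chr5:28723262-28753680, plus strand) share chromosome 5, and SLC40A1 (chr2:6776416-6800154, plus strand) and CYBRD1 (chr2:24912893-24945933, minus strand) share chromosome 2. SLC39A4 is at chr14:533918-538406 (plus strand), SLC30A1 at chr16:71867070-71871370 (plus strand), TFRC at chr1:70652654-70679923 (minus strand), FTH1 at chr29:40477517-40480266 (minus strand) and HEPH at chrX:94232113-94370235 (minus strand). All 9 are annotated as protein coding.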

How the data were processed

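Strand-specific poly(A) libraries of scraped jejunal mucosa from Holstein steers were sequenced by the study, and those of 22 steers were used here. Per the labels and methods, the authors trimmed reads with fastp, aligned them to ARS-UCD1.2 with HISAT2 2.0.5 and made the deposited gene counts with featureCounts 1.5.0-p3, raw and not normalized. The authors also deposited FPKM values, scaled to gene length and to a library size that was 0.73 to 1.25 times the count total, and used here for levels between genes and as an alternative. The submitters' notes also name StringTie 1.3.3b and DESeq2 1.20.

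Counts of all genes were fitted with edgeR 4.0.16 in R 4.3.3 (TMM, filterByExpr with a minimum count of 10, quasi-likelihood test, Benjamini-Hochberg over all genes). Genes were called at an adjusted p of at most 0.05. For each factor, steers were pooled over the other one (13928 genes tested for GLP-2, 14096 for casein), and pairwise contrasts and the interaction came from a model of the 4 treatments (15086 genes), which also gave CPM. SE was the log2 fold change over the root of F. Log2 CPM used a prior count of 2, and a marker score is a list's mean log2 CPM over its tested genes. Correlations used 100000 permutations. DESeq2 1.42.0 and limma 3.58.1 on log2(FPKM + 1) or log2(FPKM + 0.1) were alternatives. Adjusted p-values that DESeq2 left empty stayed empty. Scripts were tested on simulated counts.

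The genes, lists and comparisons were chosen with earlier results of these data known. Named genes are the 9 members, the genes of each wider list called in a pooled comparison, and the 2 genes most correlated with each member. FTL, CP, and the untested iron genes were named after their values were seen, and so were the 2 alternatives that leave out 4 steers. The group of members that varied together was also picked after the correlations were seen. Steers are the replicates, 1 library each. The block, a body weight stratum within which treatments were randomized because stalls were limited, pairs steers by design: treatment-corrected profiles of 30 same-block pairs had a mean r of 0.03 (-0.46 to 0.39), against -0.01 for 151 other pairs. A control steer and a GLP-2 steer of the design were not analysed here, and no gene sequences were used.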

Additional observations from a re-analysis of the deposited data

Results flagged for a closer look

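In 2 of the 36 sets of 5 or 6 steers tested on the CPM scale, 1 steer lay far from the rest of its treatment, both times for CYBRD1. Casein + GLP-2 steer 1 had 75.4 CPM against 8.02 to 26.1 CPM in the other 5, and casein steer 6 had 15.9 CPM against 5.15 to 7.99 CPM. The gap to the nearest steer was 0.732 and 0.737 of the range, above the critical value of 0.625, and chance alone flags about 1 set in 20. On the log2 CPM scale 0 of the 36 sets were flagged. Casein + GLP-2 steer 1 also had the highest CPM of the 22 steers for SLC39A4, SLC30A1, SLC11A2, SLC40A1 and HEPH.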

How the results depend on the processing

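Under GLP-2 against BSA, 3 members were called. With the replicate block as a term it was 0 members (6 at an unadjusted p of at most 0.05), with adjusted p-values of 0.0504 for SLC30A1, 0.0525 for TFRC and 0.0534 for SLC11A2, and the block changed no other call on a member. It was 6 with DESeq2's Wald test (21.5% of all genes called, against 13.5%) and 7 at an adjusted p of at most 0.10. It was 4 with each limma fit (HEPH added) and with at least 10 counts in every steer (SLC40A1 added), and 2 with no filter or the other factor as a covariate (SLC11A2 lost). It was 0 with the villus enterocyte score as a covariate, 0 with the B cell follicle score as a covariate, 0 without the 4 steers highest in follicle score and 0 without the 4 lowest in villus score (controls 3 and 5, casein 1 and 3), and in each of these 4 fits 0 genes of the whole table were called. Leaving out each steer in turn gave 0 to 5 members. It was 0 without control 1, control 3, GLP-2 3 or casein + GLP-2 4, and 1 without casein 1, 2 or 3, casein + GLP-2 1, 2 or 3, control 5 or GLP-2 6. It was 5 without casein 6, control 2 or GLP-2 4. TFRC kept its call in 18 of 22 such fits, SLC30A1 in 10 and SLC11A2 in 9. Scaled to the villus score, 4 members were called lower and 0 higher in GLP-2 against BSA (83.9% of all genes called), 2 lower in GLP-2 against control (SLC40A1, FTH1; 33.6%) and 2 in casein + GLP-2 against casein (SLC39A5, FTH1; 54%), where DESeq2 called 4 higher (5.91%). In the other comparisons 0 members were called under each setting run.

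The villus scaling, which moves the median of all genes by construction, turned the sign of all 9 members in GLP-2 against BSA, to SLC39A4 -0.81, SLC39A5 -1.54, SLC30A1 -0.20, SLC11A2 -0.56, SLC40A1 -1.07, HEPH -0.24, CYBRD1 -1.001, FTH1 -1.55 and TFRC -0.76, and casein against water gave SLC39A5 -0.075, SLC40A1 -0.21, CYBRD1 -0.47 and TFRC -0.043. FTH1 in GLP-2 against BSA was -0.19 with the villus covariate, -0.14 with the follicle covariate, -0.042 and -0.087 without the 4 steers of each kind, and -0.0030 to 0.16 on leaving out single steers. In casein against water, the follicle covariate gave SLC39A5 -0.042 and HEPH -0.13, leaving out the follicle-rich steers gave SLC30A1 -0.0081 and TFRC -0.033, and single steers gave -0.43 to 0.0105 for SLC39A4 and -0.026 to 0.16 for SLC39A5. In the pairwise contrasts and interaction 98 of 756 alternative values had the opposite sign, 22 of them under the villus scaling. The cause of these changes was not tested. Depth limits CYBRD1 most, with 48 counts in its lowest library.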
